A study of Mus musculus with 80 samples.

Results

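The mRNA of the mitochondrial ribosomal proteins was examined in 5 regions of the mouse brain, in females that had reared a litter and in females that had not. The members are the genes whose symbol in the deposited gene table is Mrpl or Mrps followed by a number. There are 73 of them among the 13016 genes tested, of 27179 genes counted, with 45 Mrpl and 28 Mrps symbols. All 73 passed the filter on low counts, which asked for CPM (a gene's count scaled to a fixed number of counted reads per library) of 5 or more in 8 or more libraries. The symbols Mrpl3, Mrpl55, Mrpl57 and Mrps16, which the gene table gives otherwise and RefSeq supplies, lie outside the rule, as does Mrpl36, which reached at most 0.334 CPM in a library.

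The study sequenced polyadenylated RNA from 16 C57BL/6 females (the study's methods give the substrain C57BL/6J), 8 virgin and 8 primiparous, all born within 3 days of the same date and kept in a shared barrier room. For the primiparous group, each female was paired with a male from 8 weeks of age for a limited time, gave birth and nursed, and brain tissue was taken 3 weeks after weaning according to the labels, although the study's methods give a longer interval. The virgins were of the same age and, as the study's methods state, lived in groups, so that parity and housing cannot be told apart. Each library came from the hypothalamus, cerebellum, hippocampus, neocortex or amygdala of 1 animal. The hypothalamus and the neocortex had 8 virgin and 8 primiparous libraries and the other regions 7 virgin and 8 primiparous, 77 libraries in all, and 14 of the animals gave every region. Sequencing pools were made up by region, so a difference between regions cannot be told apart from a difference between pools. In whole tissue, fewer cells of a type and less RNA per cell cannot be told apart either.

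Mitochondria carry a small genome of their own, and a dedicated ribosome inside the organelle translates its mRNAs into subunits of the respiratory chain and ATP synthase. All the proteins of this ribosome are encoded in the nucleus, made in the cytosol and imported. The large subunit holds the peptidyl transferase centre and the exit tunnel, which lies against the inner membrane, and the small subunit binds the mRNA and decodes it. Many of its proteins descend from those of bacteria, and others occur only in mitochondria. Of the 73 members, 47 encode proteins of the large subunit, 27 with a bacterial homologue and 20 specific to mitochondria. Another 25 encode proteins of the small subunit, 15 with a bacterial homologue and 10 specific to mitochondria. The remaining one, Mrps36, bears the name of a ribosomal protein but belongs to the 2-oxoglutarate dehydrogenase complex. Despite their symbols, Mrps30 and Mrps18a encode proteins of the large subunit and were counted there. The genes lie on 17 chromosomes.

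Counted reads per library ranged from 7959192 to 37871854, and the smallest count of a member in a library was 27 reads. The summed markers of the hypothalamus (7 genes, such as Hcrt and Oxt) reached 942 to 1645 CPM in its own libraries and at most 98.9 CPM elsewhere. Those of the hippocampus (5 genes) reached 229 to 443 CPM, against at most 55.6 CPM elsewhere. Those of the cerebellum (5 genes) reached 5146 to 5901 CPM there and at most 30.5 CPM elsewhere, except for 460 CPM in the hippocampus of primiparous animal 413. The 5 neocortical genes reached 364 to 547 CPM in the neocortex, a range that overlapped those in the hypothalamus (368 to 466 CPM) and the amygdala (295 to 469 CPM). The 5 genes listed for the amygdala were lower there (169 to 261 CPM) than in the hypothalamus (359 to 457 CPM), so this list does not mark the amygdala in these data. The neocortex library of primiparous animal 427 stood apart from the others. In it, 70 of the 73 members were at their highest of the 16 neocortex libraries, as were 28.2% of all tested genes. Relative to the median of the other 15 libraries, the members had a median ratio of 1.58 in this library and all tested genes one of 0.995. The ratio was 1.35 for the tercile of genes with the fewest exon bases and 0.74 for that with the most, and 56 members fell in the former tercile (up to 2558 exon bases). The main regional results are also given without this library, an alternative chosen after its values were seen.

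To show the regulatory sequence in front of these genes, the RefSeq windows from 250 bases before to 50 bases after the transcription start (GRCm38.p6) were searched for 5 short motifs on both strands. A window was listed for 64 of the 73 members. The NRF1 core CGCATGCG occurred in 7 of the 64 members (10.9%), 4.19% of tested genes and 1.87% of all windows of the same length. The ETS motif CCGGAAGT, which GABPA binds, occurred in 11 members (17.2%), 8.59% of tested genes and 3.89% of all windows. The YY1 motif AAGATGGCG occurred in 7 members (10.9%), 3.43% of tested genes and 1.4% of all windows. The letters ACTACAATT, at the start of the ZNF143 motif, occurred in 0 members, 0.838% of tested genes and 0.393% of all windows, and TATAAA in 5 members (7.81%), 8.52% of tested genes and 13.6% of all windows. NRF1, GABPA and YY1 are known regulators of nuclear genes for mitochondrial proteins. At least 1 of the first 4 motifs was present in 24 members, and no matches in a member overlapped each other. A match here is only a run of letters, and no binding was measured.

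Stretches of 120 bases directly before the RefSeq start follow, 5′ to 3′ on the strand of the gene, with the motif matches in capitals. The gene positions given further below come from GENCODE, whose starts can differ. For Mrpl1 and Mrpl32 the GENCODE start lies upstream of the whole stretch shown. Mrpl32 (chr13:14613038-14613157, minus strand) shows 2 NRF1 cores, Mrpl9 (chr3:94443216-94443335, plus strand) shows 1, and Mrps11 (chr7:78783011-78783130, plus strand) shows a YY1 motif on the opposite strand. Mrps26 (chr2:130563637-130563756, plus strand) shows an ETS motif on the opposite strand and is among the members that rose in the primiparous hypothalamus. Mrpl12 (chr11:120484517-120484636, plus strand), which had the largest rise there, and Mrpl1 (chr5:96209995-96210114, plus strand), which fell, hold none of the 5 motifs in their windows.
Mrpl32: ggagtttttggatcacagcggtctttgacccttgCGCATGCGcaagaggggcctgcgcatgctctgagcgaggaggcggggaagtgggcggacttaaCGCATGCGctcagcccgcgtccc
Mrpl9: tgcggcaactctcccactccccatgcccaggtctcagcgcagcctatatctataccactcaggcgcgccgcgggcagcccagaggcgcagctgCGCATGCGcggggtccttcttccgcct
Mrps11: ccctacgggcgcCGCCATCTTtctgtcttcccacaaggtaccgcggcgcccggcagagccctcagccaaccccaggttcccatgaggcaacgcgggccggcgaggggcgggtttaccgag
Mrps26: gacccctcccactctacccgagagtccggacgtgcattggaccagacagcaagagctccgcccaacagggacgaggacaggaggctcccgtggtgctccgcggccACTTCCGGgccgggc
Mrpl12: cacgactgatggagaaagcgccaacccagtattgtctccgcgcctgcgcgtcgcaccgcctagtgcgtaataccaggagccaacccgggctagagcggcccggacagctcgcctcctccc
Mrpl1: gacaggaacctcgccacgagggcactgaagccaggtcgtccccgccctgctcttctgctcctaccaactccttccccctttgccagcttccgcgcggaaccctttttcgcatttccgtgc

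The window of Mrps24 held a YY1 motif 36 bases after the start and that of Mrps18a the same motif 11 bases after it, outside the 120 bases. The windows of Mrps11 and Mrpl46, neighbours transcribed in opposite directions on chromosome 7 (chr7:78782881-78783180 and chr7:78783040-78783339), overlap each other.

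The members were of moderate abundance. Their mean over the 77 libraries ranged from 4.21 to 49.9 CPM with a median of 26.8 CPM, against a median of 31.3 CPM over all tested genes. Per kilobase of exons, which allows levels of different genes to be compared, the range was 3.66 to 60.4 CPM per kb, a 16.5-fold span, with a median of 19.0 CPM per kb. The highest were Mrpl41 of the large subunit (60.4 CPM per kb, 46.8 CPM over 776 exon bases), Mrps21, the counterpart of bacterial S21 in the small subunit (55.2 CPM per kb), and Mrpl42 (49.7 CPM per kb). The lowest were Mrpl47 (3.66 CPM per kb), Mrps18b (3.90 CPM per kb) and Mrps35 (3.99 CPM per kb). Members of the large subunit had a median of 22.7 CPM per kb and those of the small subunit 16.2 CPM per kb. Bacterial homologues and mitochondria-specific proteins of the large subunit had similar medians of 24.3 and 22.5 CPM per kb, and in the small subunit these were 19.8 and 12.5 CPM per kb. The summed level of the large subunit divided by that of the small, both in CPM per kb, was 2.17 to 2.66 in every library, with a median of 2.34. These sums run over 47 and 25 members and leave out ribosomal proteins with other symbols. The ratio is therefore not a balance of the subunits. Within a group of libraries, the coefficient of variation of a member was 7.79% to 22.4% (median 11.3%), and the median over all tested genes was 12.1%.

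The summed CPM of the 73 members had a median of 2152 in the cerebellum (range 1984 to 2367, 15 libraries), 2003 in the neocortex (1826 to 3168, 16 libraries), 1997 in the hypothalamus (1915 to 2204, 16 libraries), 1857 in the amygdala (1699 to 1927, 15 libraries) and 1788 in the hippocampus (1733 to 1908, 15 libraries). The ranges of neighbouring regions in this order overlapped. Without the library of animal 427 the neocortex had a median of 1977 and a maximum of 2387. The range of the cerebellum lay above those of the hippocampus and the amygdala in CPM, and that of the hypothalamus above that of the hippocampus. After TMM scaling neither did, with 1908 to 2267 in the cerebellum, 1824 to 2124 in the hypothalamus, up to 1977 in the hippocampus and up to 2013 in the amygdala. The order depends on the scaling, and after TMM scaling, which equalises the bulk of genes between libraries, the medians were 2069 in the cerebellum, 2066 in the neocortex, 1927 in the amygdala, 1902 in the hypothalamus and 1879 in the hippocampus.

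**Figure D1:**
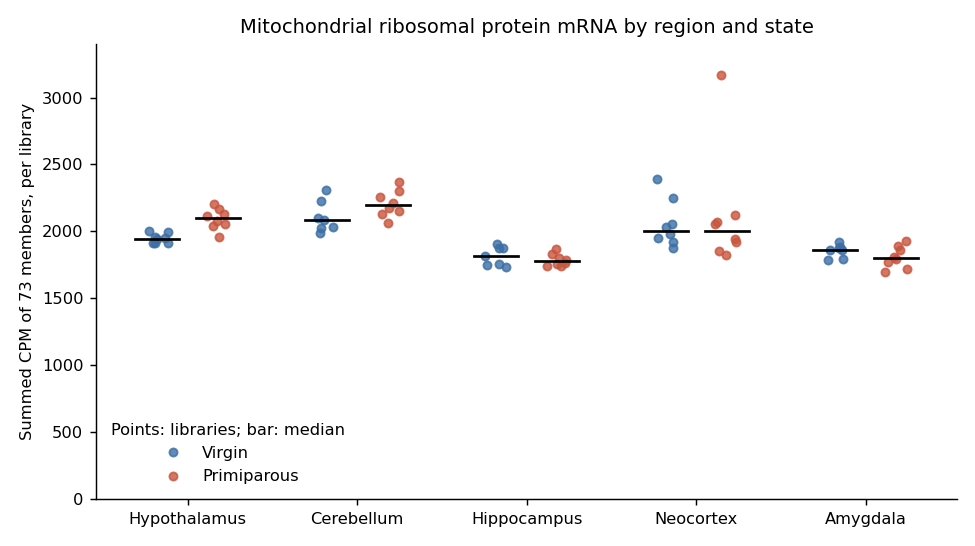
Summed CPM of the 73 members (y axis) in each of 77 libraries (points) by region and state, with a bar at the median of each group. The neocortex library of primiparous animal 427, at 3168 CPM, lies far above the next highest neocortex library at 2387, and in the hypothalamus the primiparous libraries (1960 to 2204) lie mostly above the virgin ones (1915 to 2001).

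For a single member, the mean CPM of its highest region was a median of 1.32 times that of its lowest, against 1.72 times for all tested genes. This ratio exceeded 1.5 in 8 members (11.0%, against 65.7% of tested genes), exceeded 2 in 0 members (38.7% of tested genes) and was under 1.2 in 10 members. The highest CPM was found in the cerebellum for 37 members, the neocortex for 18, the hypothalamus for 17, the amygdala for 1 and the hippocampus for 0. Without the library of animal 427 these counts were 40 for the cerebellum, 17 for the hypothalamus, 14 for the neocortex, 1 for the amygdala and 1 for the hippocampus, and the median ratio was 1.31. The lowest CPM was found in the hippocampus for 35 and the amygdala for 29, or 34 and 29 without that library.

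Each region was then compared with the mean of the other 4, with the animals of both states, in edgeR's quasi-likelihood F-test with Benjamini-Hochberg adjustment over all 13016 genes. These 5 comparisons share libraries. In the neocortex, 46 members were higher and 5 lower, with 73.9% of all tested genes called, 37.7% higher and 36.2% lower. The median log2 difference was 0.15 over the members and 0.0085 over all tested genes. Without the library of animal 427, 35 members were higher and 8 lower and the median was 0.079. With an offset for the dependence of each library on exon length and base composition (GC content), 27 were higher and 13 lower, 30 of the 40 being among the 51. In the cerebellum, 31 members were higher and 16 lower (82.4% of all tested genes called, 42.3% higher and 40.2% lower), with a median of 0.051. In the hypothalamus, 15 were higher and 28 lower (77.6% of tested genes, 38.5% higher and 39.1% lower), with a median of −0.074. In the hippocampus, 4 were higher and 27 lower (66.5% of tested genes, 32.4% higher and 34.1% lower), and with the offset 16 and 16, of which 14 were called in both fits. In the amygdala, 7 were higher and 28 lower (66.6% of tested genes, 33.3% higher and 33.2% lower), and with the offset 15 and 22. Without the neocortex library of animal 427, 35 were higher and 15 lower in the cerebellum, 16 and 28 in the hypothalamus, 5 and 27 in the hippocampus and 11 and 28 in the amygdala, and the 3 members furthest above and the 3 furthest below in each region with that library were still called there. The counts of higher and lower members in the neocortex, hippocampus and amygdala changed with the length and GC offset. Whether all tested genes shifted alike cannot be told from these counts. With all libraries and without the offset, the share of members called was below that of all tested genes in every region. The shares of all tested genes called, as given above, belong to those fits. The counts with the offset or without a library have no such share beside them. The CPM range of a region lay clear of all other regions for 0 members, against 15% of tested genes in the cerebellum, 6.76% in the hypothalamus, 1.96% in the hippocampus, 0.999% in the neocortex and 0.453% in the amygdala.

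**Figure D2:**
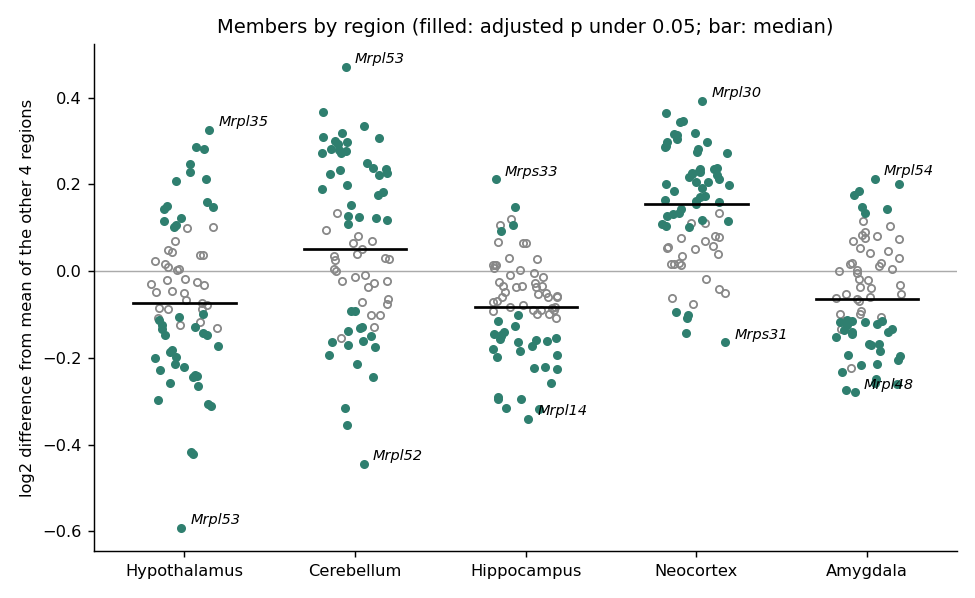
The log2 difference of each of 73 members in a region from the mean of the other 4 regions (y axis, TMM-scaled edgeR fit), with filled points for adjusted p under 0.05 and a bar at the median. The members sit mainly above 0 in the neocortex (46 called higher, 5 lower) and mainly below 0 in the hippocampus (4 higher, 27 lower).

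The widest regional difference belonged to Mrpl53, a mitochondria-specific protein of the large subunit. Its CPM was 24.7 to 39.9 in the cerebellum (median 29.6) and 11.0 to 26.9 in the hypothalamus (median 16.1), and its means differed 1.79-fold between these regions, with overlapping ranges. It was higher in the cerebellum than the mean of the other regions by 0.47 ± 0.060 (log2 ± SE, adjusted p = 3.69e-11) and lower in the hypothalamus by 0.59, a log2 difference of −0.59 ± 0.064 (adjusted p = 1.06e-13). All of its exon bases overlap another gene on the same strand in the GENCODE annotation, Gm42688. The study counted reads with the annotation built into featureCounts, so whether this overlap affected the counts is not known.

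In the hypothalamus the members furthest above the other regions were Mrpl35, a homologue of bacterial L35, Mrpl52 and Mrps31, a mitochondria-specific protein of the small subunit. Mrpl35 had 30.8 to 40.9 CPM (median 36.7) against a mean of 27.2 CPM elsewhere, a log2 difference of 0.33 ± 0.037 (adjusted p = 6.95e-13). Mrpl52 differed by 0.29 ± 0.069 and Mrps31 by 0.28 ± 0.049. After Mrpl53, the furthest below were Mrpl37, a mitochondria-specific protein of the large subunit, and Mrps21. Mrpl37 had 25.5 to 34.4 CPM (median 28.9) against 36.7 CPM elsewhere, a log2 difference of −0.42 ± 0.037 (adjusted p = 1.45e-17). Mrps21 had 17.9 to 31.8 CPM (median 20.9) against 28.4 CPM, also −0.42 ± 0.060. The ranges of all these genes overlapped with those of other regions.

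In the cerebellum Mrpl58, a peptidyl-tRNA hydrolase that is built into the large subunit and is related to factors that rescue stalled ribosomes, had 36.7 to 51.5 CPM (median 43.4) against a mean of 32.0 CPM elsewhere, a log2 difference of 0.37 ± 0.047 (adjusted p = 6.03e-11). Mrpl18, which binds the structural RNA of the central protuberance, had 36.2 to 50.1 CPM against 32.3 CPM, a difference of 0.33 ± 0.041. The furthest below the other regions were Mrpl52 (−0.44 ± 0.074), Mrpl33 (−0.35 ± 0.071) and Mrpl30 (−0.32 ± 0.049), all of the large subunit. Mrpl52 thus went in opposite directions in the hypothalamus and the cerebellum. Of the exon bases of Mrpl33, 37.0% overlap the gene Gm43809.

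In the neocortex Mrpl30, a homologue of bacterial L30, had 35.6 to 70.0 CPM (median 41.1) against 34.1 CPM elsewhere, a log2 difference of 0.39 ± 0.046 (adjusted p = 2.67e-12). Mrps27, a protein of the small subunit with pentatricopeptide repeats, differed by 0.36 ± 0.047. Mrps18b, at 3.45 to 7.24 CPM the least abundant of the named members, differed by 0.35 ± 0.094, and 59.1% of its exon bases lie opposite the gene Gm16279. Without the library of animal 427, which was the highest for Mrpl30, the range of Mrpl30 ended at 52.3 CPM and the differences were 0.33 for Mrpl30, 0.34 for Mrps27 and 0.31 for Mrps18b, all still called. The furthest below the other regions, of 5 called lower, were Mrps31 (−0.16 ± 0.050), Mrpl1 (−0.14 ± 0.053) and Mrpl39 (−0.11 ± 0.042). With the length and GC offset Mrpl1 was at −0.0063 (adjusted p = 0.917 in edgeR).

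In the hippocampus the furthest above the other regions, of 4 called higher, were Mrps33 (0.21 ± 0.052), Mrps9 (0.15 ± 0.047) and Mrpl50 (0.11 ± 0.046). The furthest below was Mrpl14, a protein at the interface of the subunits, with 9.17 to 14.6 CPM (median 12.7) against 16.7 CPM elsewhere, a log2 difference of −0.34 ± 0.073 (adjusted p = 2.92e-05). Mrps28 (−0.32 ± 0.073) and Mrpl46 (−0.32 ± 0.056) followed. With the offset, Mrpl14 was at −0.095 (adjusted p = 0.107) and Mrps28 at −0.13 (adjusted p = 0.0619), both in edgeR. Without the hippocampus library of animal 413, in which the cerebellar markers summed to 460 CPM, 4 members were higher and 29 lower. No share of all tested genes is given for that fit.

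In the amygdala Mrpl54 (0.21 ± 0.072), Mrpl52 (0.20 ± 0.071) and Mrpl33 (0.18 ± 0.069) were furthest above the other regions. The furthest below were Mrpl48 (−0.28 ± 0.046), Mrps31 (−0.27 ± 0.052) and Mrpl18 (−0.26 ± 0.044). With the offset, Mrpl54 (0.052, adjusted p = 0.434) and Mrpl52 (0.065, adjusted p = 0.247) did not pass edgeR's test.

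Among members with known special roles, the ratio of the highest to the lowest regional mean was 1.53 for Mrpl58, 1.41 for Mrps36, 1.38 for Mrpl45, which faces the inner membrane, and 1.37 for Mrpl44, which resembles RNase III. It was 1.35 for Mrps12, the counterpart of S12 in the decoding centre. The stalk proteins were more even, with 1.24 for Mrpl10, 1.23 for Mrpl12 and 1.15 for Mrpl11. Of the 3 relatives of bacterial S18, Mrps18b varied by 1.4, Mrps18a by 1.21 and Mrps18c by 1.14 between regions. At 37.1 CPM on average, Mrps18a was also the most abundant of them, with 41.9 CPM per kb against 24.8 for Mrps18c and 3.90 for Mrps18b. Mrps30 had the smallest ratio of these genes, 1.13.

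The comparison of primiparous with virgin animals was made within each region. In the hypothalamus, 10 of the 73 members were called at an adjusted p under 0.05 in edgeR's quasi-likelihood test, 9 higher and 1 lower in primiparous animals. This is 13.7% of the members, against 22.6% of all tested genes called there, 10.8% higher and 11.8% lower. The CPM ranges of the 2 states were separate for 0 members and for 0.884% of tested genes. Before adjustment, 20 members (27.4%) had a p under 0.05, 18 of them higher, against 37.1% of all tested genes. The log2 fold change was above 0 for 50 members (68.5%) and for 52.7% of all tested genes, with medians of 0.070 and 0.014. Over all genes, the terciles with few, intermediate and many exon bases had medians of 0.077, 0.0072 and −0.043, and 56 members lay in the first. Of the 47 members of the large subunit 4 rose and 1 fell, and of the 25 of the small subunit 5 rose and 0 fell.

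The member with the largest rise was Mrpl12 (chr11:120484613-120489065), a protein of the stalk of the large subunit that also binds the mitochondrial RNA polymerase. Its CPM was 19.9 to 25.1 in virgin hypothalami (median 21.8) and 24.5 to 36.5 in primiparous ones (median 27.8). All 8 primiparous libraries were above the virgin mean, and the ranges overlapped at their edge. The log2 fold change was 0.36 ± 0.086 (adjusted p = 0.00631). Opposite Mrpl12 lies the gene Gm16755, over 15.2% of its exon bases. Mrpl10, its neighbour at the base of the stalk, was at 0.055 (adjusted p = 0.511), and Mrpl11, also of the stalk base, at 0.18 (adjusted p = 0.0795), neither passing edgeR's test.

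Among the members of the small subunit, Mrps26 (chr2:130563742-130568695), a mitochondria-specific protein, had 33.9 to 43.7 CPM in virgin (median 37.3) and 35.7 to 71.5 CPM in primiparous animals (median 45.0). The primiparous library of animal 421 was far higher than the others and 7 of 8 were above the virgin mean. The log2 fold change was 0.33 ± 0.10 (adjusted p = 0.0233). Mrps24 (chr11:5703983-5715680), the counterpart of bacterial S3 at the mRNA entry, had 18.3 to 23.4 CPM in virgin (median 19.5) and 22.7 to 29.8 CPM in primiparous animals (median 25.2). Its ranges touched only at the edge, all 8 primiparous libraries were above the virgin mean, and the fold change was 0.32 ± 0.074 (adjusted p = 0.00524). Mrps21 (chr3:95862634-95871519) had 17.9 to 25.4 CPM (median 19.6) and 18.1 to 31.8 CPM (median 25.2). Its ranges overlapped over most of their width, with a virgin animal, 409, well above the other virgins, and the fold change was 0.30 ± 0.099 (adjusted p = 0.0324). Mrps34 (chr17:24895116-24897502), a mitochondria-specific protein, had 34.1 to 40.8 CPM (median 36.3) and 28.4 to 53.5 CPM (median 44.7), a fold change of 0.26 ± 0.088 (adjusted p = 0.0381). Its lowest and highest libraries were both primiparous. Mrps15 (chr4:126046925-126055532), a homologue of bacterial S15, had 26.9 to 31.6 CPM (median 28.8) and 29.1 to 41.8 CPM (median 33.7), a fold change of 0.20 ± 0.070 (adjusted p = 0.0384).

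In the large subunit, Mrpl38 (chr11:116131817-116138868), a mitochondria-specific protein at the central protuberance, had 35.0 to 44.5 CPM in virgin (median 40.4) and 39.8 to 63.5 CPM in primiparous animals (median 49.2), a log2 fold change of 0.31 ± 0.077 (adjusted p = 0.00809). Of the 8 primiparous libraries 7 lay above every virgin library and the remaining one, of animal 418, within the virgin range. Mrpl23 (chr7:142532686-142540747), which lines the exit of the tunnel, had 16.4 to 17.5 CPM (median 16.9) and 14.4 to 26.9 CPM (median 20.6), a fold change of 0.26 ± 0.094 (adjusted p = 0.0462). Its virgin libraries were nearly equal and its primiparous ones widely spread. Mrps18a (chr17:46110986-46128910) had 31.3 to 37.2 CPM (median 33.8) and 34.3 to 49.8 CPM (median 39.4), a fold change of 0.23 ± 0.069 (adjusted p = 0.0183), with all 8 primiparous libraries above the virgin mean. Mrpl1 (chr5:96209493-96266727), which forms the mobile stalk beside the tRNA exit site, was the only called member that fell. It had 16.8 to 23.0 CPM in virgin (median 22.0) and 15.9 to 20.6 CPM in primiparous animals (median 18.1), and all 8 primiparous libraries were below the virgin mean. Its log2 fold change was −0.23 ± 0.083 (adjusted p = 0.0445), and with the length and GC offset it was 0.0053.

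**Figure D3:**
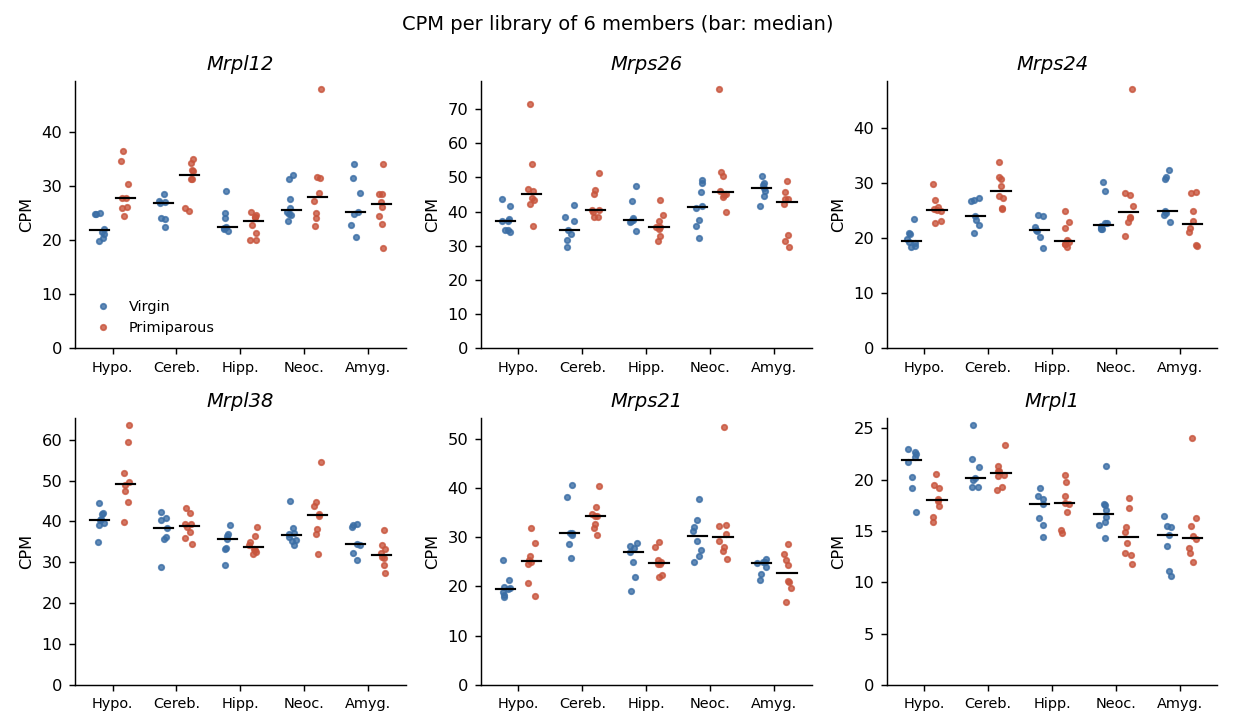
CPM per library (y axis, from 0) of Mrpl12, Mrps26, Mrps24, Mrpl38, Mrps21 and Mrpl1 in the 5 regions, with virgin libraries in blue, primiparous in red and a bar at the median of each group. In the hypothalamus the primiparous medians are higher for the first 5 genes (27.8 against 21.8 CPM for Mrpl12) and lower for Mrpl1 (18.1 against 22.0 CPM), and the single high neocortex points of those 5 genes are the library of animal 427.

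The members with known special roles did not pass edgeR's test in the hypothalamus, apart from Mrpl12 and Mrps18a. Mrps12 was at 0.20 (adjusted p = 0.0630). Mrps18b and Mrps18c, the relatives of Mrps18a, were at 0.25 (adjusted p = 0.311) and −0.085 (adjusted p = 0.497). Mrpl58 was at 0.15 (adjusted p = 0.178), Mrpl44 at 0.0042 (adjusted p = 0.974), and Mrpl45 at −0.036 (adjusted p = 0.742). Mrps30 was at 0.057 (adjusted p = 0.644) and Mrps36 at −0.080 (adjusted p = 0.686).

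Several measures moved with this comparison. The fold changes of the 73 members went with the GC content of their exons, with a Pearson r of 0.62 across genes that share the same libraries, given as a description. The 37 members at or above the median GC content had a median log2 fold change of 0.18 and the other 36 one of −0.0074, and the 9 that rose had a median GC content of 56.0% against 49.8% for the other members. Over all genes, the terciles of low, middle and high GC content had medians of −0.16, 0.018 and 0.16. With the length and GC offset 1 member was called, Mrpl17 (0.31, adjusted p = 0.0114), and none of the 10, while 1.81% of all tested genes were called in that fit. The numbering of the animals also differed between the states, with 6 of 8 virgins and 1 of 8 primiparous animals carrying a number of 4 digits, and with this series as a covariate 0 members and 3 of all tested genes (0.0230%) were called by edgeR. In that fit 12 members (16.4%, against 14.7% of all tested genes) had an unadjusted p under 0.05. Its median log2 fold change was 0.085 over the members and 0.0052 over all tested genes. The labels do not say what the numbers stand for. Leaving out libraries changed the count as well. It was 5 without virgin 405, 4487, 4489, 4490 or 4491, 6 without virgin 4488 or primiparous 413 or 421, and 18 without primiparous 418. The share of all tested genes called was 15.5% to 18.6% in the fits that gave 5 or 6 members (6.85% or 8.22%) and 31.6% without primiparous 418 (24.7% of the members). Some of the summed markers moved too. The 5 genes listed for the amygdala, which do not mark it in these data, reached 359 to 399 CPM in virgin hypothalami (median 389) and 390 to 457 CPM in primiparous ones (median 426). The 5 hippocampal genes reached 39.1 to 47.7 CPM (median 42.9) and 42.2 to 55.6 CPM (median 48.1), and the 5 microglial genes 147 to 168 CPM (median 159) and 154 to 184 CPM (median 167). The 4 blood genes reached 25.2 to 53.5 CPM (median 36) and 32.0 to 103 CPM (median 43.6), and the 5 endothelial genes 96.9 to 195 CPM (median 129) and 97.6 to 169 CPM (median 159). The 5 pituitary genes varied widely within both states, from 0.855 to 182 CPM (median 7.42) and from 0.665 to 142 CPM (median 17.8). The 5 choroid plexus genes reached 34.5 to 50.2 CPM (median 42.1) and 34.9 to 62.0 CPM (median 48.3). The medians of the 5 neuronal genes were 2926 CPM in virgin and 2805 CPM in primiparous animals. The ranges of the states overlapped for each of these lists, and their part in the result was not tested.

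**Figure D4:**
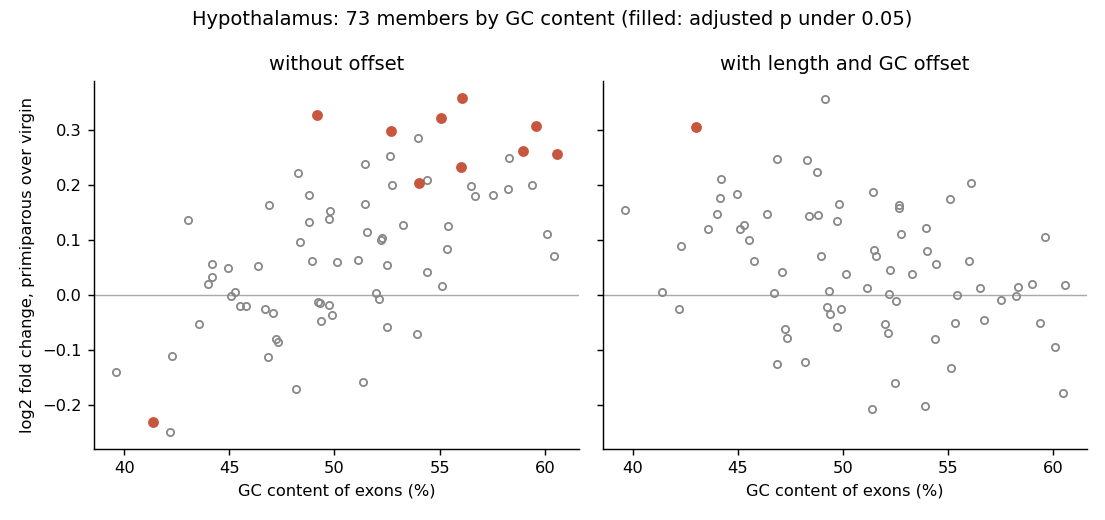
Log2 fold change in the hypothalamus (y axis) of each of 73 members against the GC content of its exons (x axis, %), without and with the length and GC offset, with filled points for adjusted p under 0.05. The points rise with GC content on the left (r = 0.62) and fall on the right (r = −0.36), and 10 filled points on the left become 1 on the right.

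The genes that work beside these proteins were taken from lists of the pathway, and the counts below stand beside the 22.6% of all tested genes called in the hypothalamus. Reads from 15 genes of the mitochondrial genome, whose mRNAs this ribosome translates, made up 4.72% to 6.03% of the counted reads in virgin hypothalami and 3.74% to 4.84% in primiparous ones. Of the 13 protein-coding genes among the tested, 11 fell and 0 rose, with a median log2 fold change of −0.48. Among them were mt-Nd3 (−0.65 ± 0.11), mt-Co2 (−0.63 ± 0.13) and mt-Atp6 (−0.56 ± 0.14). With those genes taken out of the library totals, the summed CPM of the 73 members was 2030 to 2126 in virgin and 2057 to 2291 in primiparous hypothalami. Of 5 ribosomal proteins with other symbols 2 rose, Aurkaip1 (0.26 ± 0.075) and Gadd45gip1 (0.26 ± 0.071), and Ptcd3 fell (−0.35 ± 0.084). Of 24 genes for assembly and rRNA modification 5 rose and 1 fell (25%), the methyltransferase Mrm3 (0.40 ± 0.097), the GTPase Mtg2 (0.40 ± 0.12) and the helicase Ddx28 (0.30 ± 0.10) being the largest. Of 15 translation factors 1 rose, Tufm, the elongation factor that brings aminoacyl-tRNA (0.17 ± 0.061). Of 17 mitochondrial aminoacyl-tRNA synthetases 1 fell, Iars2 (−0.16 ± 0.055). Of 10 regulators of nuclear mitochondrial genes 2 fell, the coactivator Ppargc1a (−0.24 ± 0.075) and Yy1 (−0.21 ± 0.066). Of 5 mitochondrial transcription genes 0 passed edgeR's test and 3 had an unadjusted p under 0.05, which 37.1% of all tested genes had. With the animal number series as a covariate, 2 genes of these lists were called, mt-Co1 and mt-Nd4, both lower in primiparous animals. With the length and GC offset 3 were called, mt-Co1, mt-Nd1 and mt-Nd3, again lower.

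In the other 4 regions 0 members were called between the states by edgeR, and the CPM ranges of the states were separate for 0 members in each of them (0.323% of tested genes in the cerebellum, 0.146% in the amygdala, 0.0845% in the hippocampus and 0.0154% in the neocortex). In the cerebellum, where 0.707% of all tested genes were called in edgeR, 11 members (15.1%, against 19.5% of all tested genes) had an unadjusted p under 0.05, all higher in primiparous animals. By limma-voom 0 members were called and by DESeq2 3, and no share of all tested genes is given for those fits. The log2 fold change was above 0 for 58 members and for 51.6% of all tested genes, with medians of 0.077 and 0.0051. The length terciles of all genes had medians of 0.048, 6.24e-05 and −0.029, from few to many exon bases. The smallest p belonged to Mrpl54 (chr10:81264713-81266934), a mitochondria-specific protein of the large subunit. Mrpl54 had 7.72 to 13.8 CPM in virgin (median 11.4) and 12.6 to 18.4 CPM in primiparous cerebella (median 15.1), a log2 fold change of 0.42 ± 0.11 (adjusted p = 0.0615 in edgeR, 0.0152 in DESeq2). Its ranges overlapped only between 12.6 and 13.8 CPM. Mrps26 (0.29 ± 0.079, adjusted p = 0.0690) and Mrpl12 (0.29 ± 0.079, adjusted p = 0.0702) did not pass edgeR's test. Without primiparous animal 4493 there were 4 calls, and without animal 418 there was 1, again with no share of all tested genes given for those fits. In the same libraries the oligodendrocyte markers (5 genes) summed to 4035 to 5470 CPM in virgin and 4963 to 6977 CPM in primiparous animals, and reads from the mitochondrial genome made up 2.96% to 4.42% and 3.71% to 5.30%. The microglial markers (5 genes) summed to 61.0 to 75.3 CPM and 72.8 to 91.6 CPM, and those of blood (4 genes) to 41.6 to 61.3 CPM and 45.5 to 151 CPM. The choroid plexus markers (5 genes) spread over 35.3 to 1293 CPM and 47.6 to 3585 CPM. The part of any of these in the values of the members was not tested. All 13 protein-coding mitochondrial genes were above 0, with a median of 0.51, and 1 was called, mt-Nd4l (0.71 ± 0.14, adjusted p = 0.0241 in edgeR).

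In the hippocampus, neocortex and amygdala 0% of all tested genes were called in edgeR, and 0 members in edgeR, limma-voom and DESeq2 alike. In the hippocampus 4 members (5.48%, against 7.38% of all tested genes) had an unadjusted p under 0.05. The smallest belonged to Mrpl52, with 15.6 to 21.4 CPM in virgin (median 18.6) and 14.3 to 18.0 CPM in primiparous animals (median 15.2), a log2 fold change of −0.19 ± 0.076 (adjusted p = 0.630 in edgeR). In the neocortex 3 members (4.11%, against 9.80%) had an unadjusted p under 0.05. Mrps26 had 32.3 to 49.2 CPM in virgin (median 41.4) and 39.8 to 75.9 CPM in primiparous animals (median 45.6), a log2 fold change of 0.29 ± 0.12 (adjusted p = 0.482 in edgeR). The highest of these values was the library of animal 427, without which the log2 fold change was 0.18. The median over the members was 0.060 in the neocortex and −0.031 without that library, so its direction rested on 1 library. In the amygdala 4 members (5.48%, against 11.9%) had an unadjusted p under 0.05, all lower. Mrps26 had 41.6 to 50.4 CPM in virgin (median 47.0) and 29.6 to 49.0 CPM in primiparous animals (median 42.9), a log2 fold change of −0.22 ± 0.095 (adjusted p = 0.367 in edgeR). Across the regions the primiparous and virgin ranges of Mrps26 thus overlapped everywhere, and the sign of its difference varied.

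**Figure D5:**
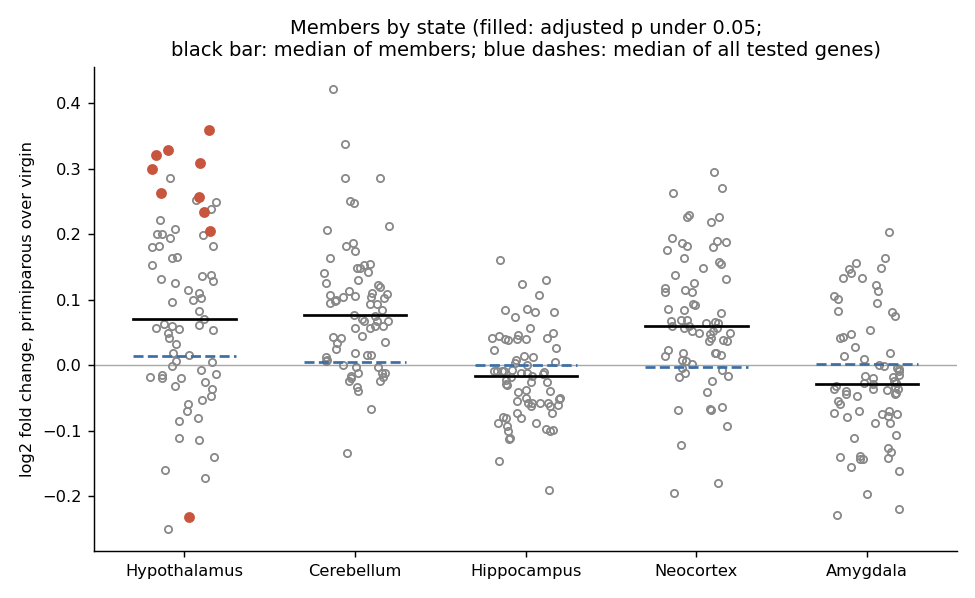
Log2 fold change, primiparous over virgin (y axis), of each of 73 members in the 5 regions, with filled points for adjusted p under 0.05, black bars at the median of the members and blue dashes at that of all tested genes. Filled points occur in the hypothalamus only (9 higher, 1 lower), and the median of the members is 0.070 there, 0.077 in the cerebellum and −0.029 in the amygdala.

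Whether the difference between the states itself differed between the hypothalamus and another region was tested as an interaction in edgeR. These 4 tests share the hypothalamus libraries. Against the hippocampus 8 members were called, all with a more positive fold change in the hypothalamus (17.2% of all tested genes called, 6.81% in this direction). Those with the largest interaction were Mrps26 (0.43 ± 0.13, adjusted p = 0.0245) and Mrpl12 (0.41 ± 0.11, adjusted p = 0.0142). When the replicate block was fitted, pairing the regions of each animal, 3 were called, Mrpl12 among them (0.42, adjusted p = 0.0293) and Mrps26 not (0.39, adjusted p = 0.0518). Against the amygdala 6 members were called, all more positive in the hypothalamus (18.2% of all tested genes, 9.78% in this direction), with the largest interaction for Mrps24 (0.56 ± 0.13, adjusted p = 0.00409) and Mrps26 (0.55 ± 0.15, adjusted p = 0.00921). With the length and GC offset 0 members were called against the hippocampus and 2 against the amygdala, Mrps26 among them (0.60, adjusted p = 0.0497). With the replicate block and the offset together 0 were called against the amygdala, Mrps26 being at 0.58 (adjusted p = 0.0584). Against the cerebellum 0 members were called in edgeR (15.5% of all tested genes), 8 (11.0%, against 30.5% of tested genes) having an unadjusted p under 0.05, and 1 was called by limma-voom. The smallest p was that of Mrpl13 (−0.33, adjusted p = 0.0505). With the replicate block 1 member was called against the cerebellum, with the offset 2 and with both 1. The shares of all tested genes called, as given so far, belong to edgeR's fits without the block or the offset. Against the neocortex 0 members and 0% of all tested genes were called in edgeR and 0 members in limma-voom, 1 member (1.37%, against 2.58%) having an unadjusted p under 0.05, Mrps17 (0.42 ± 0.19, adjusted p = 1.00). Without the library of animal 427 the count called remained 0 of the members and 0 of all tested genes in edgeR, and 13 members (17.8%, against 4.83% of all tested genes) had an unadjusted p under 0.05. The median interaction of the members was then 0.13 in place of 0.016, and that of all tested genes 0.011 in place of 0.0090. This library was left out after the members were seen to be high in it. Leaving it out lowers their primiparous neocortex values and so raises their interaction. The excess of members over all tested genes in that fit is therefore no evidence of an interaction.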

How the data were processed

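Per the labels and the study's methods, polyadenylated RNA was made into NEBNext Ultra libraries and sequenced as 100-base single-end reads. The authors aligned the reads to mm10 with HISAT2 and deposited whole-number counts per gene from featureCounts. Whether featureCounts used strand is not given in the sources used here, so reads of genes that overlap on opposite strands cannot be assigned. The deposited log2 table, which its header describes as on the CPM scale, equals the log2 of the count divided by a size factor plus 4 within 5e-05 and was used only for gene symbols and as a check. Of 80 libraries, 3 were not analysed here, all of virgin animals, from the cerebellum, hippocampus and amygdala. The study's methods report that an outlier from each of these regions was removed on principal component analysis.

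CPM is the count scaled to a fixed number of counted reads, given without a pseudocount. Genes that reached 5 CPM in 8 or more libraries were tested in R 4.3.3 with edgeR 4.0.16 (TMM, robust quasi-likelihood F-test, Benjamini-Hochberg over 13016 genes), each region alone for the states, 4 groups for an interaction and 10 groups for the regions. A called gene has an adjusted p under 0.05, and SE is the standard error of the log2 value. Alternatives used limma 3.58.1 (the study's own test), DESeq2 1.42.0, RLE factors, no filter, the animal number series, a length and GC offset, the animal as a block and libraries left out. The offset covered 12632 genes (97.0%). Exon lengths, GC content and positions came from GENCODE M21 on GRCm38 (mm10), and promoters from RefSeq. For 3 members a pseudogene of the same name is annotated, which could take reads. Summaries were made in Python 3.11.15 (pandas 2.3.3, numpy 2.4.6) and figures in matplotlib 3.10.9. The fits were also run on simulated counts, which had the same spread for all genes and no effect of the animal. Those runs do not show how the fits handle either.

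The labels name the animal of each library, so regions of an animal are paired. The deviations of 2 regions from their group means correlated, at the median, by −0.013 to 0.10 within animals and by −0.021 to 0.0069 across animals. The p-values measure the spread between animals. Biological coefficients of variation were 16.3% in the neocortex, 15.7% in the amygdala, 12.1% in the hypothalamus, 12.0% in the cerebellum and 11.3% in the hippocampus.

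Named members were, by a rule, per state comparison the called members at either end of the fold changes, up to 5 each (the smallest p where none was called), 3 and 3 per region, 2 and 2 per interaction (again the smallest p where none was called), the 3 highest and 3 lowest in CPM per kb, and 12 members by role. Other called members of the hypothalamus, Mrpl17 and members given beside a named one were chosen after their values were seen. The members, the lists and this rule were chosen with earlier results of these data known.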

Additional observations from a re-analysis of the deposited data

Results flagged for a closer look

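Values far from the rest of their group were looked for in 30 groups, of which chance gives about 1 in 20. The summed CPM of the members was 3168 in the neocortex of primiparous animal 427, and Mrps26 was at 75.9 CPM in the same library. Mrps21 was at 25.4 CPM in the hypothalamus of virgin animal 409.

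The difference between primiparous and virgin animals differed between the hypothalamus and the hippocampus, by the interaction in edgeR's quasi-likelihood test, for 8 members (11.0%, against 17.2% of all tested genes). The log2 interaction was 0.43 for Mrps26, 0.41 for Mrpl12, 0.37 for Mrps24, 0.36 for Mrpl52, 0.33 for Mrpl23, 0.31 for Mrpl38, 0.28 for Mrps18a and 0.28 for Mrps12. The fold changes within the hippocampus were −0.11 for Mrps26, −0.058 for Mrpl12 and −0.061 for Mrps24, and none of them passed edgeR's test there. The replicate block left 3 calls, without Mrps26, and the length and GC offset 0.

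Between the hypothalamus and the amygdala it differed for 6 members (8.22%, against 18.2% of all tested genes), by 0.56 for Mrps24, 0.55 for Mrps26, 0.46 for Mrps34, 0.45 for Mrpl38, 0.40 for Mrpl43 and 0.36 for Mrps12. In the amygdala the fold changes were −0.23 for Mrps24, −0.22 for Mrps26 and −0.14 for Mrpl38, again short of the threshold. The replicate block left 5 calls, the offset 2 and the offset with the block 0. Both sets of tests use the same hypothalamus libraries. The shares of all tested genes given for them belong to the fits without the block or the offset.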

How the results depend on the processing

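No paired analysis was possible because no animal was both virgin and primiparous, for the comparisons of the states. In the hypothalamus the 10 calls became 6 without the filter (8.22% of the members, against 11.3% of the 21492 genes then tested). They became 0 with the animal number series and 1 with the length and GC offset, where 0.0230% and 1.81% of all tested genes were called. When a library was left out the count was 5 to 18 (the library of each count stands in the report). Mrpl1 reversed to 0.0053 with the offset. The cause of these changes was not tested. In the cerebellum the 0 calls became 3 in DESeq2, 2 with the offset and 0 to 4 when a library was left out, and in the hippocampus, neocortex and amygdala they stayed at 0 under each alternative. In the interactions, the replicate block gave 1 call against the cerebellum in place of 0, 3 against the hippocampus in place of 8 and 5 against the amygdala in place of 6. The replicate block with the offset gave 1, 0 and 0, the offset alone 2, 0 and 2, and limma-voom 1 against the cerebellum and 5 against the hippocampus. Against the neocortex the count was 0 throughout. The replicate block changed no count of the region comparisons by over 1.5 times, with 48 called in the neocortex, 47 in the cerebellum, 45 in the hypothalamus, 36 in the amygdala and 30 in the hippocampus. The counts given here for the cerebellum, the interactions and the regions have no share of all tested genes from the same fit beside them. With TMM scaling the mean summed CPM was 1863 in place of 1948 in virgin and 1976 in place of 2093 in primiparous hypothalami, 1903 in place of 1817 and 1879 in place of 1786 in hippocampi, and 1933 in place of 1854 and 1901 in place of 1810 in amygdalae. Leaving out 1 library kept the direction and side of the threshold in 196 of the values of named members, while 20 no longer passed and 2 passed only then. Depth sets the precision of the least abundant members, Mrps18b having 27 to 199 reads per library.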

Other observations

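Of the tested genes that carry a mitoribosomal name in RefSeq alone, Mrpl3 had a mean of 46.2 CPM over the 77 libraries, Mrpl57 one of 23.7, Mrpl55 one of 20.5 and Mrps16 one of 15.1. None was called between the states in the hypothalamus by edgeR, and Mrps16 was the closest to the threshold, with a log2 fold change of 0.27 (adjusted p = 0.0504).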
